A study of Rattus norvegicus with 8 samples.

Results

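The 10 genes described here encode transcription factors of the dividing cell or their partners: Mybl1, Mybl2, Foxm1, E2f1, E2f3, E2f5, E2f7, E2f8, Tfdp1 and Lin9. They were picked by name, with earlier results of these data known. A gene counted as measured where the accession of a non-control array probe led to its symbol. Of the 10 genes, 7 had such a probe, 11 probes in all among 30367 on the array, and all 7 entered the test over 19137 genes. E2f5, E2f8 and Lin9 matched no probe and were not analysed here. The cells were pulled from collagenase-treated whole lungs of Sprague-Dawley rats, 8 to 10 weeks old, with magnetic beads carrying an antibody to CD31, and their RNA was taken without culture. In the control group 4 rats had received saline. In the other group 4 rats had received monocrotaline, a plant alkaloid that injures the lung endothelium and leads to pulmonary hypertension, at 60 mg/kg under the skin. Lungs were taken 5 days later in both groups, so the comparison asks how the genes differ early in this disease model, and each rat gave 1 of the 8 one-colour Agilent arrays.

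E2F proteins bind DNA as pairs with a DP partner such as the product of Tfdp1, and in resting cells the retinoblastoma family of pocket proteins holds them in check. When cyclin-dependent kinases release them, E2F1 and E2F3 switch on genes for the start of DNA replication, while E2F7 and E2F8 are repressors that act on the same genes later in S phase. B-MYB, the product of Mybl2, then joins the MuvB complex, which contains LIN9, and together with FOXM1 this complex switches on genes needed for mitosis. Mybl2 and E2f1 are themselves textbook E2F target genes. In the adult lung most endothelial cells are at rest, and of these genes Mybl2 and Foxm1 are known for low expression in resting cells.

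Promoter sequences from RefSeq (build GRCr8, 250 bases before to 50 bases after the annotated start) were on hand for Mybl2, E2f3, E2f7, Tfdp1 and Lin9. They are shown for Mybl2, which rose most clearly among the members, for E2f7, the E2F gene called higher in the test by gene, and for E2f3, where neither probe passed. Both strands were searched for E2F sites (TTTCGCGC, TTTGGCGC, TTTCCCGC or TTTGCCGC), the CHR element of mitotic genes (TTTGAA), the forkhead core (TAAACA) and the MYB core (AACGG). A shorter E2F core (GGCGGGA), which can overlap the E2F site, was added after these promoters had been seen. Capitals mark E2F sites, CHR elements and the shorter core. Mybl2 lies on the plus strand at chr3:172124555-172124854, E2f3 on the plus strand at chr17:34810166-34810465, and E2f7 on the plus strand at chr7:48036653-48036952.
Mybl2: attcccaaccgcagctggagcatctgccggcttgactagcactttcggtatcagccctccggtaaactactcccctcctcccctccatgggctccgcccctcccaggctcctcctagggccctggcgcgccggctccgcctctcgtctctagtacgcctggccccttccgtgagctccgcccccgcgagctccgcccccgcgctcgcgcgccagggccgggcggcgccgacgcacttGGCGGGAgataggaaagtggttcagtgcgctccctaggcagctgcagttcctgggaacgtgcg
E2f3: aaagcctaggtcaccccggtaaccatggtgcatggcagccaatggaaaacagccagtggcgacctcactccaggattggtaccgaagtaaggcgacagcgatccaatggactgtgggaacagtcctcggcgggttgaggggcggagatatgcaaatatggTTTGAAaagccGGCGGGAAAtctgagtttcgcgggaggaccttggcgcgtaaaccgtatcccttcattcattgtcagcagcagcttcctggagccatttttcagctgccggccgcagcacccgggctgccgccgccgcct
E2f7: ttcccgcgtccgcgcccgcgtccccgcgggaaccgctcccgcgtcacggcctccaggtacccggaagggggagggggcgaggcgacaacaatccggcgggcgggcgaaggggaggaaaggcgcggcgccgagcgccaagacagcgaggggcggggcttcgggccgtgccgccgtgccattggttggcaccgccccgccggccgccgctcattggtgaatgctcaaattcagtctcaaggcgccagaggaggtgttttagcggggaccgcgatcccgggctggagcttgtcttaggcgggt

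Positions are counted from the annotated start. The Mybl2 window held the shorter core at -13 to -7 and none of the longer E2F sites. In the E2f3 window an E2F site on the minus strand at -78 to -71 overlapped the shorter core at -79 to -73, and a CHR element lay at -90 to -85. The E2f7 window, with a GC content of 71.7%, held none of the E2F sites, CHR elements or shorter cores searched. Over all 33469 promoters of the same length, an E2F site was present in 2.14%, a CHR element in 18.3% and the shorter core in 10.5%. A match is a description of the letters and not a shown binding site, and the lack of one says only that these letters are not in this window.

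Signals are given as scaled log2 signals, the log2 of a probe's processed signal minus the 75th percentile of its own array, so that 0 is the level below which 75% of the probes lie. Levels of different probes are not compared, because probes differ in how strongly they bind their target. Of the 10 genes, 4 were called higher after monocrotaline (Mybl1, Mybl2, Foxm1 and E2f7) and 0 lower, at an adjusted p under 0.05 in limma's test across all genes; over all genes tested, 1.37% were called higher and 0.0627% lower. At an unadjusted p under 0.05 (limma) 6 of the 7 measured genes were higher, E2f3 being the exception, and 0 lower, beside 6.72% higher and 7.23% lower over all genes tested. Mybl1 entered the test only through its signal on the monocrotaline arrays. With only probes well above background on all 8 arrays kept, Mybl1 was not tested. Of the 6 members then tested, 3 were called higher. Over all genes 234 were called higher in that stricter test, beside 262 of 19137 in the main test. At an unadjusted p under 0.05 (limma) 5 members were higher, with 1098 of all genes, beside 1286 in the main test. The stricter test held fewer genes than 19137, and its total is not given here, so its counts are not shares. For 5 of the 7 measured genes, Mybl1 among them, every monocrotaline array lay above every saline array, against 4.56% of all genes. All 7 differences were positive, with a median of 1.18 on the log2 scale, beside -0.03 over all genes tested. RNA was measured in bulk, so more dividing cells and more RNA per cell cannot be told apart.

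**Figure D1:**
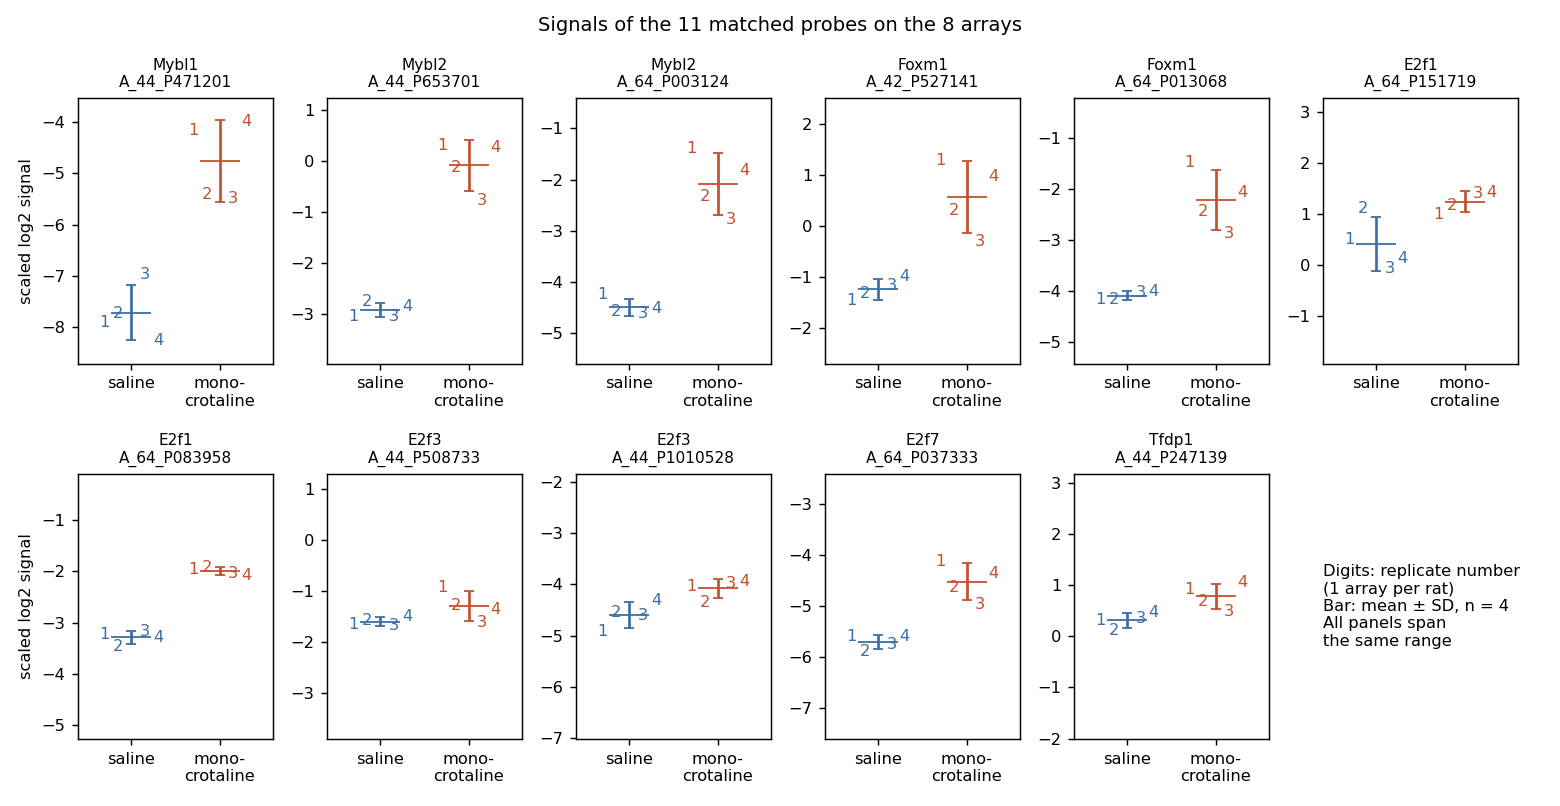
Scaled log2 signal of every matched probe on each of the 8 arrays, saline and monocrotaline side by side, with digits for single rats (the replicate number) and bars for the group mean and SD. The groups stand apart for both probes of Mybl2 and of Foxm1, for Mybl1, E2f7 and Tfdp1 and for the dimmer probe of E2f1, and overlap for the probe of E2f1 used in the gene test and for both probes of E2f3.

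Mybl2 encodes B-MYB, the MYB protein of dividing cells that links the S phase and mitotic gene programmes. Its probe (NM_001106536) read -3.04, -2.76, -3.04 and -2.86 on saline arrays 1 to 4 and 0.30, -0.13, -0.77 and 0.26 on monocrotaline arrays 1 to 4. All 4 monocrotaline arrays were far above the saline arrays, and monocrotaline array 3 was the lowest of them. The mean rose from -2.92 ± 0.14 to -0.08 ± 0.50 (SD, n = 4 each), a log2 difference of 2.84 ± 0.24 (SE), which is 7.16-fold, with an adjusted p of 0.0052 (limma). A second Mybl2 probe read -4.25, -4.58, -4.62 and -4.53 in saline and -1.39, -2.34, -2.78 and -1.83 in monocrotaline. It too was separate between the groups and lowest on monocrotaline array 3, and it rose 5.33-fold (log2 difference 2.41 ± 0.28, limma adjusted p 0.0110 over all probes).

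Mybl1 encodes A-MYB, a close relative of B-MYB known from male germ cells and from germinal centre B cells. Its probe (NM_001106632) read -7.92, -7.74, -6.98 and -8.26 in saline and -4.16, -5.41, -5.49 and -3.98 in monocrotaline. In saline its signal stayed below the scanner's limit for a spot well above background in all 4 rats, whereas all 4 monocrotaline arrays passed that limit, arrays 1 and 4 higher than 2 and 3. The measured means were -7.73 ± 0.54 and -4.76 ± 0.80 (SD, n = 4 each, adjusted p 0.0164 in limma). The probe passed the filter only through the monocrotaline arrays, so this p is not separate support for a rise. Because the saline level is only a bound, the signal was at least 4.13-fold higher after monocrotaline under the scanner's own background correction. This was computed against the lowest signal that was well above background on each saline array. A background model in place of that correction (normexp) was run with an offset of 50 added to every signal. It gave a log2 difference of 0.63 (adjusted p 0.249, limma), which is below this bound. An added offset shrinks the fold of dim signals, and the shares of model and offset were not separated. The underlying processed signals were small, 4.88 to 14.9 in saline and 38.1 to 138.9 in monocrotaline.

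Foxm1 encodes a forkhead factor that drives genes of G2 phase and mitosis. Its probe (NM_031633, printed at 10 spots per array) read -1.47, -1.33, -1.17 and -0.99 in saline and 1.27, 0.31, -0.31 and 0.97 in monocrotaline. The groups did not overlap, and monocrotaline arrays 1 and 4 were higher than 2 and 3. The mean rose from -1.24 ± 0.21 to 0.56 ± 0.71 (SD, n = 4 each), a log2 difference of 1.80 ± 0.33 (SE), which is 3.48-fold, with an adjusted p of 0.0405 (limma). The other Foxm1 probe read -4.16, -4.17, -4.03 and -4.01 in saline and -1.48, -2.44, -2.89 and -2.07 in monocrotaline, a rise of 3.66-fold (log2 difference 1.87 ± 0.27, limma adjusted p 0.0178 over all probes).

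E2f7 encodes an atypical E2F that binds without a DP partner and represses E2F target genes. Its probe (NM_001108092) read -5.60, -5.89, -5.75 and -5.60 in saline and -4.13, -4.64, -4.98 and -4.37 in monocrotaline. The groups did not overlap, with monocrotaline array 3 again the lowest of its group. The mean rose from -5.71 ± 0.14 to -4.53 ± 0.36 (SD, n = 4 each), which is 2.26-fold (log2 difference 1.18 ± 0.19, adjusted p 0.0268, limma). Its processed signals were dim but well above background on all 8 arrays, 17.6 to 35.7 in saline and 54.2 to 106.1 in monocrotaline.

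E2f1 encodes an activating E2F, and its probes gave different calls. The probe used in the gene test (NM_001100778) read 0.50, 1.11, -0.07 and 0.12 in saline and 0.99, 1.17, 1.41 and 1.41 in monocrotaline. Saline array 2 lay above monocrotaline array 1, so the groups overlapped. The log2 difference of 0.83 ± 0.26 did not pass (adjusted p 0.205, limma). A dimmer E2f1 probe, printed once per array, read -3.23, -3.46, -3.17 and -3.28 in saline and -1.95, -1.91, -2.03 and -2.07 in monocrotaline. Here the groups were well apart with little spread within either, -3.29 ± 0.12 and -1.99 ± 0.07 (SD, n = 4 each). This probe rose 2.45-fold (log2 difference 1.29 ± 0.11, limma adjusted p 0.0066 over all probes, of which 1.36% were called higher). The changes at the E2f1 probes differed by 0.46, which an exact two-sided permutation test over the 8 arrays did not separate (p 0.257, adjusted 0.457 over the 4 genes with 2 probes; the smallest p this design allows is 0.0286). In this test the Mybl2 probes gave an exact permutation p of 0.0571 (adjusted 0.229), Foxm1 0.514 and E2f3 0.343.

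**Figure D2:**
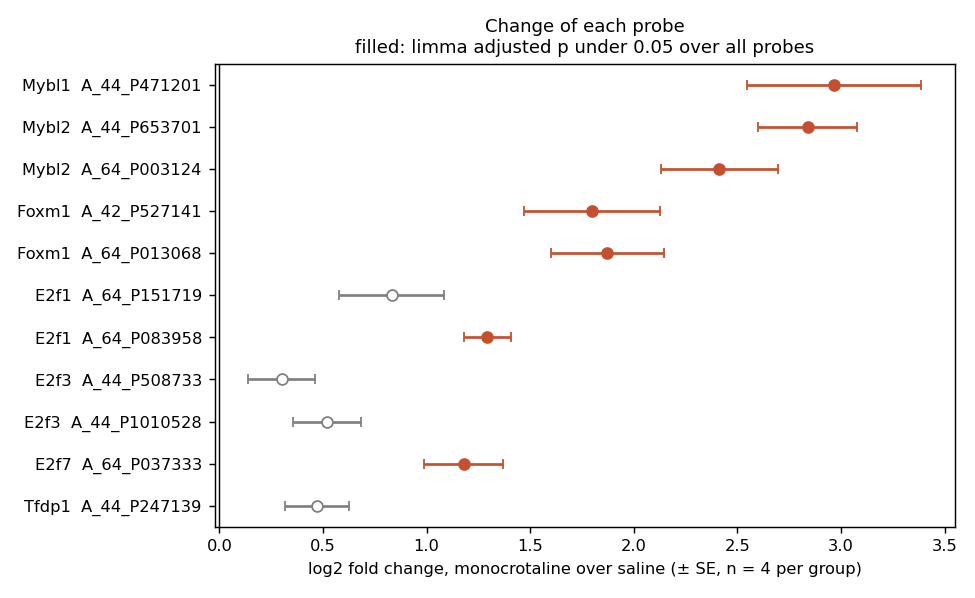
Log2 difference between monocrotaline and saline for each of the 11 probes, with bars for the standard error of limma's fit. The Mybl2 probes lie at 2.84 and 2.41, while the E2f1 probes lie at 0.83 and 1.29 and the E2f3 probes at 0.30 and 0.52.

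E2f3 encodes another activating E2F, and neither of its probes passed the test. One probe (NM_001137626) read -1.64, -1.57, -1.68 and -1.49 in saline and -0.92, -1.28, -1.62 and -1.36 in monocrotaline. Monocrotaline array 1 was the highest and array 3 lay among the saline arrays. The log2 difference was 0.30 ± 0.16 (adjusted p 0.435, limma), and 0.52 ± 0.17 for the other probe (adjusted p 0.222 over all probes, limma), where the groups also overlapped. Tfdp1, the DP partner, read 0.31, 0.12, 0.36 and 0.46 in saline and 0.91, 0.69, 0.49 and 1.05 in monocrotaline (NM_001025718). Its groups were barely apart, with a gap of 0.03 between saline array 4 and monocrotaline array 3. The log2 difference of 0.47 ± 0.15 did not pass (adjusted p 0.236, limma), which does not show that Tfdp1 was unchanged.

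The calls of the members varied between the alternative settings. In the gene test Mybl2 passed in 18 of 19 alternative settings, E2f7 in 10 of 19, Mybl1 in 10 of 18 and Foxm1 in 8 of 19. E2f1 passed in 1 of 19, with the mean of its probes, and E2f3 and Tfdp1 in 0 of 19. The dimmer probes, tested over all probes, passed in 15 of 16 settings for E2f1, 14 for Mybl2, 10 for Foxm1 and 0 for E2f3. Without saline array 1, 2 or 4, or without monocrotaline array 1 or 4, Mybl2 was the 1 member still called, and without saline array 3 there were 2. With a background model in place of the scanner's own correction (normexp, offset of 50 added), the difference at Mybl1 was 0.63 (adjusted p 0.249, limma). At E2f7 it was 0.37 (adjusted p 0.338, limma), and neither passed. Both genes had dim signals, whose folds an added offset shrinks.

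**Figure D3:**
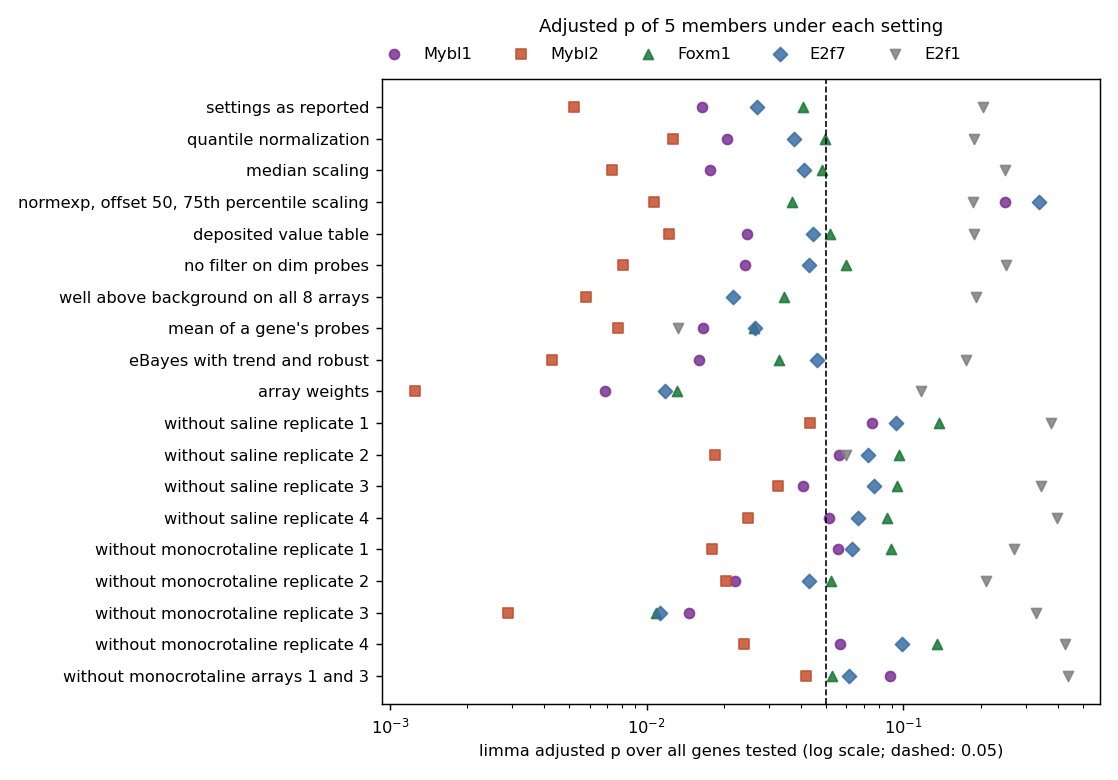
Adjusted p of Mybl1, Mybl2, Foxm1, E2f7 and E2f1 (the probe used in the gene test) under each processing setting except the replicate block, on a log axis with a dashed line at 0.05. Mybl2 lies left of the line in the settings plotted (with the block, not plotted, it missed at 0.0663), and Mybl1, Foxm1 and E2f7 each lie right of it for most of the single arrays left out.

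Of a list of E2F, DP and pocket proteins, which includes the members E2f1, E2f3, E2f7 and Tfdp1, 9 of 13 genes were tested. Only the member E2f7 was called higher, 1 of 9 beside 1.37% of all genes, and the median difference was 0.35. At an unadjusted p under 0.05 (limma) 5 of 9 were higher and 0 lower, beside 6.72% and 7.23% of all genes. Rbl2, the pocket protein p130 of resting cells, differed by -0.01 ± 0.18 (limma adjusted p 0.984). The other pocket proteins, named after their values were seen, gave 0.03 ± 0.15 for Rb1 and 1.35 ± 0.28 for Rbl1 (p107; adjusted p 0.0683, limma). Of a list of the MuvB core and MYB family, which also holds Foxm1, 6 of 9 were tested, with a median of 1.26. The genes called higher, 3 of 6 beside 1.37% of all genes, were the members Mybl1, Mybl2 and Foxm1. Their calls and their part in the median repeat the member result and are not further support. The core subunits measured were Rbbp4 at 0.24 ± 0.12, Lin54 at 0.72 ± 0.17 and Lin37 at -0.01 ± 0.14, none of which passed.

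The genes upstream of the E2F proteins, which are cyclins, their kinases and kinase inhibitors, had a median of 0.22. Of these, 2 of 15 were called higher and 0 lower, beside 1.37% and 0.0627% of all genes. At an unadjusted p under 0.05 (limma) 4 of 15 were higher and 1 lower, beside 6.72% and 7.23% of all genes. Skp2, which marks the inhibitor p27 for destruction, rose 3.18-fold (log2 difference 1.67 ± 0.18, limma adjusted p 0.0107). Cdkn2c, the CDK4 and CDK6 inhibitor p18, rose 2.66-fold (1.41 ± 0.25, limma adjusted p 0.0353).

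Genes known as E2F targets of the G1/S transition were higher in larger number: 24 of 30 tested genes rose, beside 1.37% of all genes. All 30 differences were positive, beside 8825 of 19137 over all genes, and the median was 1.35. Ccne2, a cyclin that starts S phase, rose 10.3-fold (log2 difference 3.36 ± 0.27, limma adjusted p 0.0041) and cleared the background limit in only 2 of the 4 saline rats. Ccne1, its close relative, rose 7.61-fold (2.93 ± 0.31, limma adjusted p 0.0107), and Cdc6, which loads the replicative helicase, rose 7.22-fold (2.85 ± 0.25, limma adjusted p 0.0069). The count of 24 fell to 4 without saline array 1, 14 without saline array 3 and 15 without monocrotaline array 1. Leaving out saline array 2 or monocrotaline array 4 gave 16. With these arrays left out in turn, 11, 106, 84, 114 and 68 of all 19137 genes were called higher, beside 262 with all 8. At an unadjusted p under 0.05 (limma) all 30 G1/S genes were higher in each of these settings. Over all genes that count was 1056, 1321, 1175, 1474 and 1036.

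Genes known as targets of B-MYB and FOXM1 in G2 and mitosis had 13 of 31 called higher, beside 1.37% of all genes. All 31 differences were positive, beside 8825 of 19137 over all genes, and the median was 1.46. Pbk, a mitotic kinase, rose 7.24-fold (log2 difference 2.86 ± 0.33, limma adjusted p 0.0111). Gtse1, a microtubule-associated protein of G2 phase, rose 6.30-fold (2.66 ± 0.45, limma adjusted p 0.0334), and Nuf2, a kinetochore subunit, rose 4.14-fold (2.05 ± 0.30, limma adjusted p 0.0184). The count of 13 fell to 0 without saline array 1 (27 of 31 at an unadjusted p under 0.05 in limma, beside 1056 of all 19137 genes higher), to 2 without saline array 2, 3 or 4, to 4 without monocrotaline array 1 and to 1 without monocrotaline array 4.

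**Figure D4:**
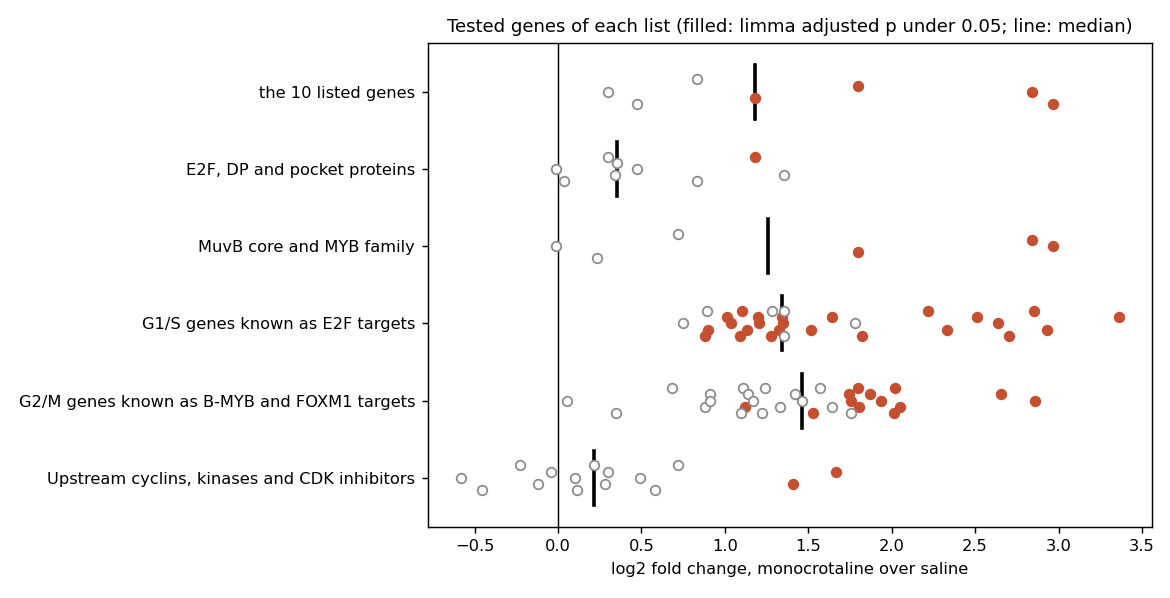
Log2 difference between monocrotaline and saline for each tested gene of the pathway lists, with called genes filled and a line at each list's median. The medians lie at 1.35 for the G1/S list, 1.46 for the G2/M list and 0.22 for the upstream list, beside -0.03 over all genes tested.

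The motifs searched in the members' promoters were also counted in the promoters of these target lists. An E2F site was present in 14 of 27 promoters of the G1/S list (51.9%) and in 1 of 33 of the G2/M list (3.03%), beside 2.14% of all promoters. The CHR element was present in 2 of 27 (7.41%) of the G1/S list and 22 of 33 (66.7%) of the G2/M list, beside 18.3% of all. The forkhead core was present in 0 of 27 and in 6 of 33 (18.2%), beside 13.7% of all promoters, and the MYB core in 7 of 27 (25.9%) and 17 of 33 (51.5%), beside 17.3%. The shorter E2F core was present in 11 of 27 (40.7%) and 8 of 33 (24.2%), beside 10.5%. Of the tested genes, 9 of 13 G1/S genes with an E2F site were called higher and 10 of 11 without one, as were 6 of 17 G2/M genes with a CHR element and 3 of 9 without. These lists hold genes named as targets partly because of such sites, so the shares are not independent evidence.

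Markers of other cell types were measured beside the members. Over all genes, 1.37% were called higher and 0.0627% lower. At an unadjusted p under 0.05 (limma), 6.72% of all genes were higher and 7.23% lower. All 13 tested endothelial markers were well above background on all 8 arrays. Of these, 0 of 13 were called and 7 were lower at an unadjusted p under 0.05 (limma). Their differences were positive for 0 of 13, with a median of -0.58. The mean of these markers, set to the saline mean, ran from -0.27 to 0.39 in saline. It was -0.42, -0.10, -0.77 and -0.85 on monocrotaline arrays 1 to 4. T and NK cell markers were higher, with 3 of 16 called (15 higher at an unadjusted p under 0.05), all 16 positive, and a mean of -0.86 to 0.36 in saline against 1.30, 1.00, 1.94 and 1.64. They were highest on monocrotaline array 3. By the probes used in the gene test, Mybl1, Mybl2, Foxm1, E2f3, E2f7 and Tfdp1 were lowest of their group there. For Mybl1 the margin was small (-5.49 against -5.41 on array 2), and E2f1 was second highest on array 3. Any link between these orders was not tested. B and plasma cell markers overlapped between groups, with -0.62 to 0.75 in saline and -0.43, 0.11, 0.93 and 0.25, and 0 of 9 called (limma; 1 higher and 1 lower at an unadjusted p under 0.05). Airway cell markers were far higher on monocrotaline arrays 1 and 3 (2.95 and 3.09) than on 2 and 4 (0.67 and 0.79), with -1.12 to 0.57 in saline. Of these markers 1 of 10 was called and 4 were higher at an unadjusted p under 0.05 (limma). Their differences were positive for 9 of 10, with a median of 1.98. Erythroid markers reached 2.35 on monocrotaline array 3, against -0.15 to 0.69 on the other monocrotaline arrays, with 0 of 7 called by limma. Macrophage markers ran from -0.98 to 0.75 in monocrotaline and -0.46 to 0.26 in saline, with 0 of 10 called by limma. Neither list had a gene at an unadjusted p under 0.05. The part of other cells in the rise of the members was not tested. Without monocrotaline arrays 1 and 3, an alternative chosen after the data had been seen, Mybl2 alone of the members was called. The G1/S list had 10 calls and the G2/M list 3, beside 51 of all 19137 genes called higher, against 262 with all 8 arrays. At an unadjusted p under 0.05 (limma) 6 members, 30 G1/S genes and 29 G2/M genes were higher in that setting, beside 997 of all genes.

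**Figure D5:**
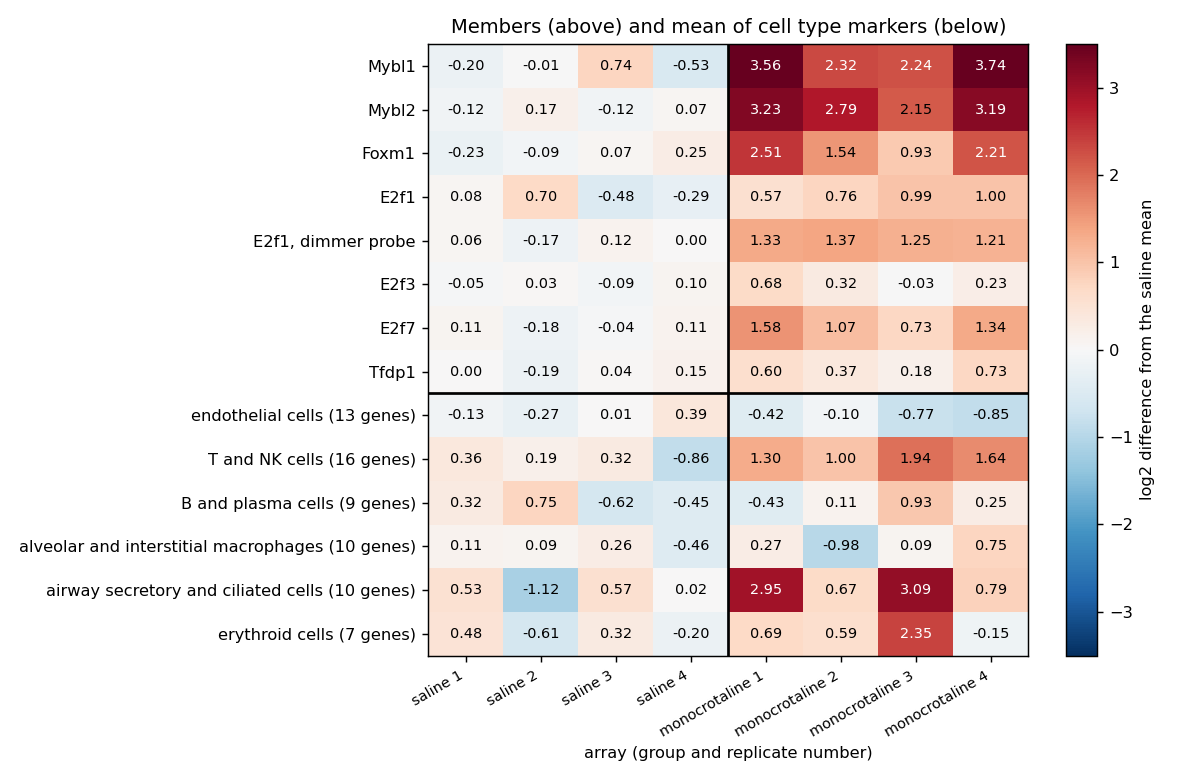
Log2 difference from the saline mean for each measured member (above) and for the mean of each cell type's markers (below), 1 column per array, with colour from blue (lower) to red (higher) and the value printed. Mybl2 lies between 2.15 and 3.23 on the monocrotaline arrays, and T and NK cell markers between 1.00 and 1.94.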

How the data were processed

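RNA of 8 rats, 4 per group, was amplified from 10 ng and labelled with Cy3, per the labels' protocols. Spot intensity values were deposited by the authors as Agilent Feature Extraction output, with background subtracted by the scanner software and flags for spots well above background, saturated or outlying, per the file headers. The authors' deposited table holds log2 values taken a second time from quantile-normalized log2 processed signals, to a median difference of 9.89e-10 over 62976 features; the submitters' processing notes name limma 3.6.9. Here control spots (4259) and outlier flags were left out, the spots of a probe averaged, log2 taken and each array's 75th percentile subtracted. Of the probes, 21652 well above background on at least 4 of 8 arrays were kept, with the brightest per gene, and 19137 genes were tested with limma 3.58.1 (lmFit and eBayes in R 4.3.3, Benjamini-Hochberg adjustment, called at 0.05). A probe was named through its RefSeq accession; 18006 of 30367 matched.

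Probe signals of all 8 arrays came from 1 slide, with saline in row 1 and monocrotaline in row 2, so slide row and group cannot be told apart. Between 70.8% and 77.7% of spots per array were well above background. Arrays correlated at 0.965 to 0.986 within groups and 0.962 to 0.979 between them. The script was tested on simulated data. Members and lists were chosen with earlier results of these data known. Named from each list were up to 3 called genes with the largest change, or the brightest measured gene where none was called. Alternatives covered scaling, background correction, the deposited table, filters, probe choice, array weights, each array left out and the replicate number as a block. The number of arrays limits the precision.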

Additional observations from a re-analysis of the deposited data

How the results depend on the processing

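No result changed direction under the alternatives run. The count of 4 members called higher was 2 with normexp background correction (offset 50), 0 with the replicate block and 1 without monocrotaline arrays 1 and 3. It was 1 to 4 with 1 array left out, and 0 members were lower in every setting. The G1/S count of 24 was 0 with the replicate block, 10 without arrays 1 and 3 and 4 to 26 with 1 array left out, and the G2/M count of 13 was 0, 3 and 0 to 13. Quantile normalization, median scaling, array weights and trend with robust fitting called the same 4 members. With the deposited table and with no filter Foxm1 missed (adjusted p 0.0520 and 0.0595, limma), with the strictest filter Mybl1 was not tested, and with the mean of a gene's probes E2f1 also passed (0.0133). Same-numbered arrays did not deviate together (r -0.33 to -0.01, beside -0.34 to 0.39 for arrays with different numbers). This gave no sign that the replicate numbers pair the rats, but it cannot exclude a pairing. With the replicate block the adjusted p (limma) was 0.0663 for Mybl2, 0.0970 for E2f7, 0.124 for Mybl1 and 0.135 for Foxm1. In that setting 0 of 19137 genes were called. At an unadjusted p under 0.05 (limma) it had 6 members, 30 G1/S genes and 27 G2/M genes higher. Over all genes 1035 were higher and 834 lower at that threshold. Mybl1 was not well above background in saline, which limits its fold to a bound that holds only for the scanner's background correction.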

Other observations

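The deviations of the members from their group means were correlated over the 8 arrays, as a description. The correlation was 0.92 for Mybl2 and Foxm1, 0.91 for Foxm1 and E2f7 and 0.81 for Mybl2 and E2f7. Mybl1, the other called gene, gave lower values with these, 0.62 with Mybl2, 0.71 with Foxm1 and 0.58 with E2f7. Genes that did not pass the test gave values as high: Tfdp1 0.85 with Foxm1 and 0.86 with E2f7, and E2f3 0.79 with Mybl2 and 0.82 with both Foxm1 and E2f7. E2f1, by the probe used in the gene test, correlated with the other members at -0.48 to -0.01, and its monocrotaline arrays ran in another order, 4, 3, 2 and 1 from high to low, against 1, 4, 2 and 3 for Mybl2, Foxm1 and E2f7. These correlations share the same arrays and scaling.

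Over 11428 genes with a symbol, those most like the mean standardized profile of the 7 measured members across the 8 arrays were Cdca3, a mitotic regulator, at r = 0.998, Tk1, thymidine kinase of S phase, at 0.997, Kif11, a spindle motor, at 0.997, Kifc1, another spindle motor, at 0.996, and Nuf2 at 0.996. The group difference is part of these values. With group means removed, r was 0.993 for Cdca3, 0.979 for Tk1, 0.978 for Kif11, 0.971 for Kifc1 and 0.970 for Nuf2.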
